A study of Mus musculus with 12 samples.

Results

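The 10 genes described here were the 5 lysyl oxidases, Lox and Loxl1 to Loxl4, and 5 elastic fibre genes, Eln (elastin), Fbn1 (fibrillin-1), Fbln2 (fibulin-2), Fbln5 (fibulin-5) and Efemp2 (fibulin-4). They were taken by gene symbol from a count table of 56350 genes, in which each had 1 row, and all 10 were among the 16484 genes that passed the filter on low counts. Counts came from mRNA sequencing of MPC2 cells, a conditionally immortalized mesenchymal line that is 1 mouse clone. MSCs were undifferentiated cells grown at 33 °C, and osteocytes (Ocy) were the same line after 3 weeks at 37 °C with beta-glycerophosphate and ascorbic acid, so temperature and media cannot be told apart from differentiation. Each cell type received DMSO (vehicle) or FG-4592 (Roxadustat) at 50 µmol/L for 48 h, which gave 4 conditions of 3 libraries. FG-4592 inhibits the prolyl hydroxylases that mark hypoxia inducible factors (HIF) for degradation, and so mimics low oxygen.

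Elastic fibres have a core of crosslinked elastin laid on a scaffold of fibrillin microfibrils. Fibulin-4 and fibulin-5 bring elastin and the crosslinking enzymes to that scaffold, and fibulin-2 binds to elastin and fibrillin. Lysyl oxidases are secreted, copper-dependent enzymes that oxidize lysines of elastin and of fibrillar collagens, the first step towards covalent crosslinks, and collagen crosslinks give bone matrix much of its toughness. Lox and Loxl2 are known from other systems as genes that hypoxia induces.

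Total counts ranged from 52829185 to 68108470 per library. Levels are given as CPM, counts scaled to the normalized library size, and levels of different genes are compared only as CPM per kb of exonic sequence. A count of 0 allows up to 3 counts, which is 0.0447 to 0.0545 CPM in these libraries and covers counting error only. The RNA came from whole cultures, so fewer cells of a type and less RNA per cell cannot be told apart. Slc2a1, Vegfa and Tfrc, known HIF targets, were higher in every FG-4592 library than in the vehicle libraries of the same cell type (Slc2a1 rose from 22.7 ± 0.728 to 234.1 ± 4.44 CPM in MSCs, mean ± SD, n = 3). Of 10 osteocyte and osteoblast markers, Sost, Mepe and Pdpn had at most 2 counts in each library, whereas Phex had 2817 to 4181 counts in vehicle-treated osteocytes against 52 to 70 in vehicle-treated MSCs. Alpl and Ibsp went the other way, from 76.6 and 59.6 CPM in vehicle-treated MSCs to 61.0 and 35.6 CPM in vehicle-treated osteocytes (means of 3 libraries). The 10 markers summed to 325.2 to 338.6 CPM in the former and 441.2 to 458.3 CPM in the latter. The 4 adipocyte markers Adipoq, Plin1, Cebpa and Fabp4 summed to 1903 to 2504 CPM in osteocytes with vehicle and 2117 to 2523 CPM with FG-4592, against 231.0 to 250.7 CPM and 145.3 to 156.5 CPM in the MSCs. Endothelial and blood markers summed to at most 2.64 and 2.05 CPM in a library. The osteocyte cultures thus carried adipocyte transcripts beside the osteocyte ones. The part of these transcripts in the results below was not tested.

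A gene was called when its absolute log2 fold change was above 1 at an FDR (Benjamini-Hochberg over all genes tested, edgeR quasi-likelihood test) under 0.05. With FG-4592, 1 of the 10 genes was called up and 0 down in MSCs, where 4.12% and 5.17% of all genes tested were, and 5 passed the FDR alone, against 38.1% of all genes. DESeq2 also called 0 down, and 3 of the 10 fell at an unadjusted p under 0.05. In osteocytes 3 were called up and 2 down, against 6.25% and 4.26% of all genes, and 7 passed the FDR alone, against 43.8%. The median log2 fold change of the 10 genes was 0.20 in MSCs and 0.09 in osteocytes, and that of all genes tested −0.05 and 0.00. The response therefore did not run one way through the set: Lox and Fbln2 were higher with FG-4592, Loxl1 was lower, and Fbln5, Fbn1 and Efemp2 moved little.

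**Figure D1:**
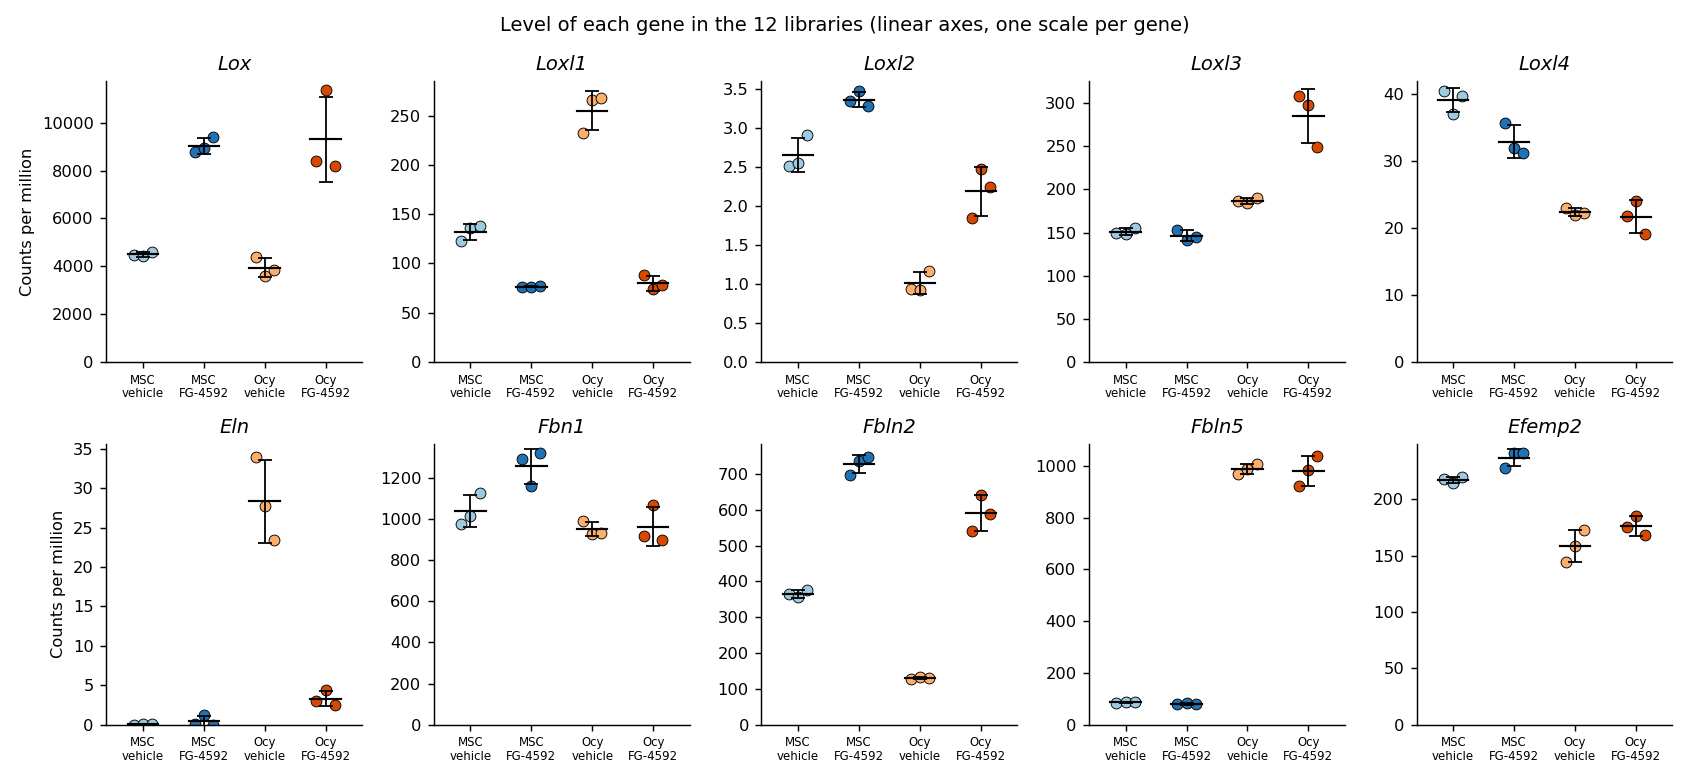
Level of each of the 10 genes in CPM (vertical axes, linear, each gene on its own scale) in the 12 libraries, grouped by condition (Ocy, osteocytes). Points are libraries, horizontal lines are means and bars are SD (n = 3). Lox and Fbln2 stood higher with FG-4592 in both cell types and Loxl1 lower, Fbln5 was high in osteocytes whatever the treatment, and Eln was high in vehicle-treated osteocytes.

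Lox (chromosome 18, 52516067 to 52529867, minus strand, mm10) encodes the founding enzyme of the family and was by far its most abundant member. Vehicle-treated MSCs had 4461, 4429 and 4600 CPM, and FG-4592-treated MSCs had 8774, 8947 and 9397 CPM. Vehicle-treated osteocytes had 4391, 3611 and 3832 CPM, and FG-4592-treated osteocytes had 8404, 11360 and 8182 CPM. Treated and vehicle libraries did not overlap in either cell type, and the highest single value was that of osteocyte FG-4592 replicate 2. Lox was 2.01-fold higher with FG-4592 in MSCs (log2 fold change 1.01, SE 0.0968, FDR = 4.4e-07) and 2.36-fold higher in osteocytes (1.24, SE 0.0973, FDR = 3.08e-08). The 2 responses differed by 0.23 on the log2 scale, with a 95% interval of −0.08 to 0.55 and FDR = 0.242. In MSCs the fold lay at the cutoff of the call, and it was 0.92 with scaling to library size alone and 0.98 without MSC FG-4592 replicate 3. Between the cell types, Lox differed by −0.19 in vehicle (FDR = 0.114) and by 0.04 in FG-4592 (FDR = 0.73).

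Lox took 0.370% to 1.08% of all counts in a library and ranked between 9 and 26 among all genes by CPM per kb. On that scale, it held 91.8% to 92.1% of the summed level of the 5 lysyl oxidases in MSCs with vehicle and 96.6% to 96.9% with FG-4592. In osteocytes its share was 85.7% to 88.8% with vehicle and 94.7% to 96.2% with FG-4592. The remainder was mostly Loxl1 and Loxl3, and Loxl2 was at most 0.0513% in any library. The ratio of Lox to Loxl1 per kb rose from 10.8 ± 2.00 in vehicle-treated osteocytes to 81.7 ± 21.7 with FG-4592 (n = 3), since both genes moved, in opposite directions. In MSCs the ratio was 23.6 ± 1.39 with vehicle and 81.7 ± 2.65 with FG-4592, so the treated cell types reached similar means from vehicle levels that did not overlap.

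**Figure D2:**
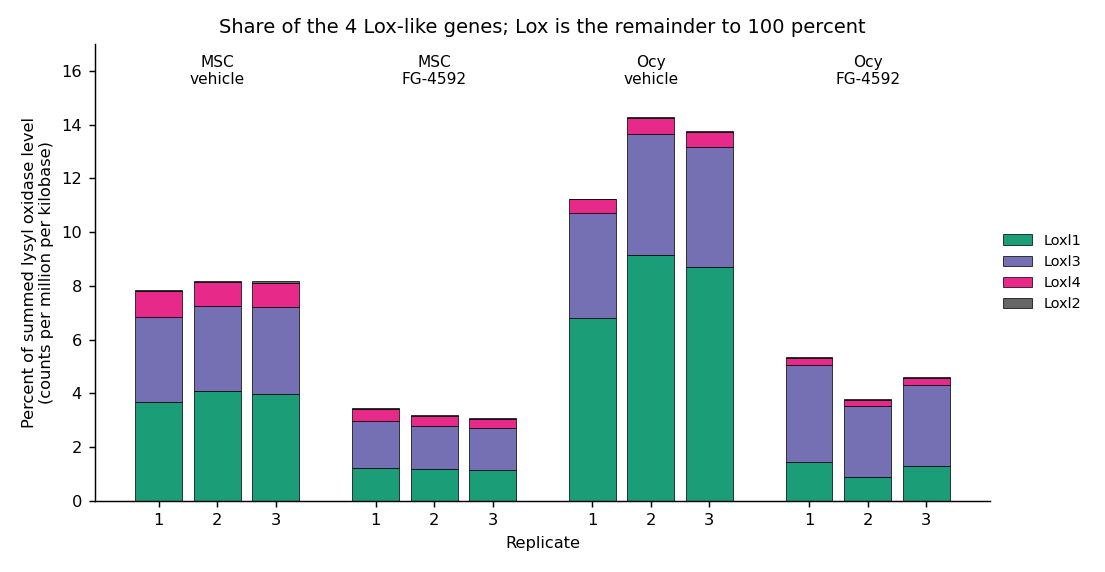
Share of Loxl1, Loxl3, Loxl4 and Loxl2 in the summed level of the 5 lysyl oxidases (vertical axis, percent of CPM per kb) in each library, grouped by condition. The part up to 100 percent is Lox, which held 85.7% to 88.8% in vehicle-treated osteocytes and 94.7% or more in the treated libraries of both cell types.

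Lox shares 30 exonic bases with the antisense transcript AC161119.1, and the authors counted without strand, so reads in those bases cannot be told apart. AC161119.1 had 1145 to 1243 counts in MSCs with vehicle and 2058 to 2250 with FG-4592, and 310 to 404 and then 798 to 804 counts in osteocytes. Its log2 fold changes with FG-4592, given here because of its position, were 0.76 in MSCs (FDR = 2.29e-06) and 1.11 in osteocytes (FDR = 5.59e-08), next to Lox counts of 200882 to 694705. It was lower in vehicle-treated osteocytes than in vehicle-treated MSCs (−1.74, FDR = 1.48e-10).

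Loxl1 (chromosome 9, 58287738 to 58313186, minus strand), which is known to bind fibulin-5 and to crosslink elastin, fell with FG-4592 in both cell types. Vehicle-treated MSCs had 122.4, 135.7 and 137.7 CPM against 76.4, 75.8 and 76.8 CPM with FG-4592. Vehicle-treated osteocytes had 231.8, 265.5 and 267.3 CPM against 87.9, 73.6 and 77.7 CPM with FG-4592. The vehicle libraries parted by cell type, and the 6 treated libraries lay within one range. The log2 fold change was −0.79 in MSCs (SE 0.0703, FDR = 1.78e-07), short of the cutoff of a call, and −1.68 in osteocytes (SE 0.0713, FDR = 1.52e-11), a 3.20-fold fall. The response in osteocytes minus that in MSCs was −0.89 on the log2 scale (95% interval −1.11 to −0.66, FDR = 8.27e-06). In vehicle, osteocytes were 1.93-fold above MSCs (log2 0.95, FDR = 1.05e-08), whereas with FG-4592 the difference was 0.06 (95% interval −0.10 to 0.23, FDR = 0.472). The summed level of 5 smooth muscle markers, nearly all of it Acta2, was also lower with the drug, going from 1911 to 2125 down to 581.1 to 611.3 summed CPM in MSCs and from 749.6 to 891.8 down to 118.9 to 188.9 in osteocytes. Of the 5, Des went the other way in osteocytes, from a mean of 5.00 to 7.66 CPM. Their part in the fall of Loxl1 was not tested.

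Loxl2 (chromosome 14, 69609068 to 69695834, plus strand), an enzyme that crosslinks collagen IV and is also found in the nucleus, was the scarcest lysyl oxidase. It had 138, 153 and 185 counts in vehicle-treated MSCs, 199, 233 and 210 with FG-4592, 62, 51 and 72 in vehicle-treated osteocytes and 120, 151 and 136 in FG-4592-treated osteocytes. No pair of conditions of the same cell type or treatment overlapped in CPM. Loxl2 was 2.17-fold higher with FG-4592 in osteocytes (log2 1.12, SE 0.195, FDR = 0.000189) and differed by 0.34 in MSCs (95% interval −0.08 to 0.76, FDR = 0.161). The difference between the responses was 0.78 (SE 0.266, FDR = 0.044), and this FDR rose to between 0.0693 and 0.121 when any of 10 of the 12 libraries was left out, all except osteocyte vehicle replicate 3 and osteocyte FG-4592 replicate 1. In vehicle, osteocytes were 2.63-fold below MSCs (log2 −1.40, FDR = 1.62e-05). With FG-4592 the difference was −0.62 (FDR = 0.00881), and its FDR was 0.0515 without osteocyte FG-4592 replicate 1. Annotated Loxl2 transcripts hold stretches of at least 100 bases that match 143 other genes at 95% identity or more, so its counts are less certain than those of Lox, Loxl1, Loxl4, Fbln2 and Fbln5, for which no such match was found.

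Loxl3 (chromosome 6, 83034173 to 83052562, plus strand), an enzyme that acts on collagens, responded to FG-4592 in osteocytes. Vehicle-treated osteocytes had 186.4, 183.9 and 190.4 CPM and FG-4592-treated osteocytes 308.2, 298.5 and 249.0 CPM. In MSCs the libraries had 149.0, 148.2 and 155.7 CPM with vehicle and 153.5, 140.9 and 144.6 CPM with FG-4592, and these overlapped. The log2 fold change was 0.61 in osteocytes (SE 0.0659, FDR = 1.28e-06), under the cutoff of a call, and −0.05 in MSCs (95% interval −0.20 to 0.11, FDR = 0.638). The responses differed by 0.66 (SE 0.0932, FDR = 8.79e-05). Loxl3 shares 535 exonic bases, 11.6% of its length, with Htra2, which fell by 0.20 on the log2 scale with FG-4592 in osteocytes (FDR = 0.0368) at 1502 to 1826 counts.

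Loxl4 (chromosome 19, 42593982 to 42612813, minus strand) was set by cell type more than by treatment. It had 40.4, 37.0 and 39.7 CPM in vehicle-treated MSCs and 23.0, 21.9 and 22.3 CPM in vehicle-treated osteocytes, a log2 difference of −0.80 (SE 0.0822, FDR = 5.75e-07), and with FG-4592 the difference was −0.60 (FDR = 1.09e-05). The FG-4592 response was −0.25 in MSCs (FDR = 0.0233) and −0.05 in osteocytes (95% interval −0.24 to 0.14, FDR = 0.68). The FDR in MSCs rose to between 0.0812 and 0.119 without vehicle replicate 1 or 3 or without FG-4592 replicate 2 or 3.

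**Figure D3:**
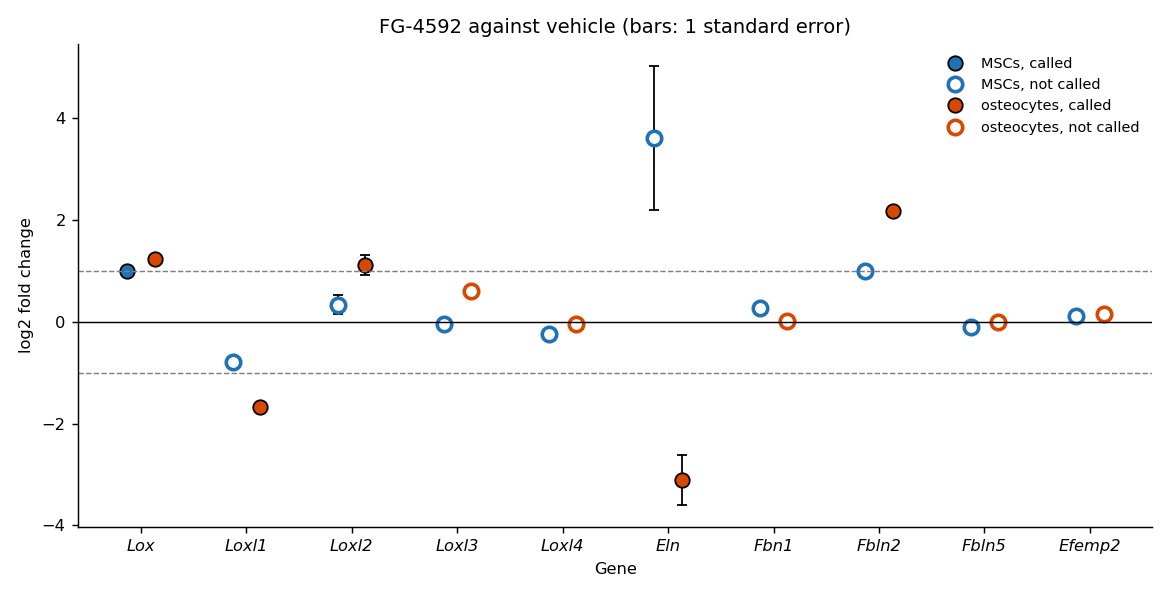
Log2 fold change of FG-4592 against vehicle for each gene (vertical axis) in MSCs (blue) and osteocytes (orange). Bars are 1 SE, filled points are called genes and dashed lines mark −1 and 1. Lox lies above 1 in both cell types, Fbln2 reaches 2.19 in osteocytes, and the MSC value of Eln has an SE of 1.41.

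Eln (chromosome 5, 134702593 to 134747323, minus strand) encodes tropoelastin, the soluble unit of elastin. The counts of the 3 vehicle-treated MSC libraries were 0, 1 and 5. FG-4592-treated MSC replicates 1, 2 and 3 had 1, 83 and 0 counts. Vehicle-treated osteocytes had 2253, 1540 and 1443 counts, and FG-4592-treated osteocytes had 194, 268 and 152. Of the 6 MSC libraries, 4 were thus under the 3 counts that a count of 0 allows, 1 had 5 counts, and MSC FG-4592 replicate 2 stood apart with 83. Every osteocyte library lay above all MSC libraries, and vehicle-treated osteocytes lay above FG-4592-treated osteocytes without overlap.

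In CPM, vehicle-treated osteocytes had 33.9, 27.7 and 23.5 and FG-4592-treated osteocytes had 2.99, 4.38 and 2.51. Eln was 8.61-fold lower with FG-4592 in osteocytes (log2 −3.11, SE 0.49, FDR = 7.17e-05), and the lowest vehicle library was 5.36-fold above the highest treated one. The log2 fold change lay between −3.36 and −2.95 when each library was left out in turn. DESeq2 gave −3.12 with an FDR of 0.0915, and, in a fit chosen after these values were seen, −3.12 with an FDR of 9.99e-55 once MSC FG-4592 replicate 2 was left out. The FDR in DESeq2 thus turned on an MSC library that has no part in the fold. The osteocyte and osteoblast markers were lower with FG-4592 in the same cultures, at a sum of 441.2 to 458.3 CPM with vehicle and 242.6 to 270.7 CPM with the drug. Mean Phex went from 57.6 to 2.83 CPM, Dmp1 from 11.2 to 2.06 CPM and Ibsp from 35.6 to 12.2 CPM, and Sost, Mepe and Pdpn were at or near 0 in both. The summed smooth muscle markers, nearly all Acta2, were also lower, at 749.6 to 891.8 CPM with vehicle and 118.9 to 188.9 CPM with the drug. The part of either marker list in the fall of Eln was not tested.

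In vehicle, the lowest osteocyte library was 298.7-fold above the highest MSC library in CPM. The fitted log2 difference was 9.64 (SE 0.871, FDR = 1.28e-07). It moved between 9.16 without MSC vehicle replicate 1 and 11.40 without MSC vehicle replicate 3, since the MSC level rests on 6 counts in all. With FG-4592 the fitted difference was 2.92 (FDR = 0.000949) and 8.34 without MSC FG-4592 replicate 2. DESeq2 gave 2.97 (FDR = 0.0952), which is no call, and 8.65 (FDR = 1.19e-08) without that library, again in the later fit. The treated MSC libraries left had 1 and 0 counts, within the 3 that a 0 allows, so 8.34 and 8.65 are not exact.

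The FG-4592 response of Eln in MSCs was 3.62 (SE 1.41, FDR = 0.0553) and −1.81 (FDR = 0.447) without MSC FG-4592 replicate 2. It passed the call in 5 of 19 alternatives, which were no filter, the likelihood ratio test, and leaving out MSC FG-4592 replicate 1 or 3 or osteocyte vehicle replicate 1 (lowest FDR with a library left out 0.0107). The difference between the responses was −6.72 (SE 1.37, FDR = 0.00184) and −1.29 (FDR = 0.805) without that library. Both values thus turn on the 83 counts of 1 library. Without it, treated MSCs had 1 and 0 counts against 0, 1 and 5 in vehicle, so −1.81 and −1.29 are not exact.

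The counts of MSC FG-4592 replicate 2 are given here for genes with a profile like that of Eln, by limits set after its counts were seen, and the source of its 83 Eln counts was not tested. The 7 genes with at most 5 counts in each vehicle-treated MSC library and a mean of at least 1000 counts in vehicle-treated osteocytes were Slc36a2, Acvr1c, Eln, Adcyap1r1, Cidec, Thrsp and Lum. In MSC FG-4592 replicate 2, Eln was at 4.36% of its mean level in vehicle-treated osteocytes and the other 6 genes were at 0% to 0.515%. Lum, with 10795 to 19796 counts in vehicle-treated osteocytes, had 0 counts in that library. The genes with at least 50 counts in this library and at most 3 in each of the other 2 FG-4592-treated MSC libraries were Sptb, Eln, Pramef6, Mir5108 and Gm44946. By the same rule, each of those 2 libraries held 0 such genes.

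**Figure D4:**
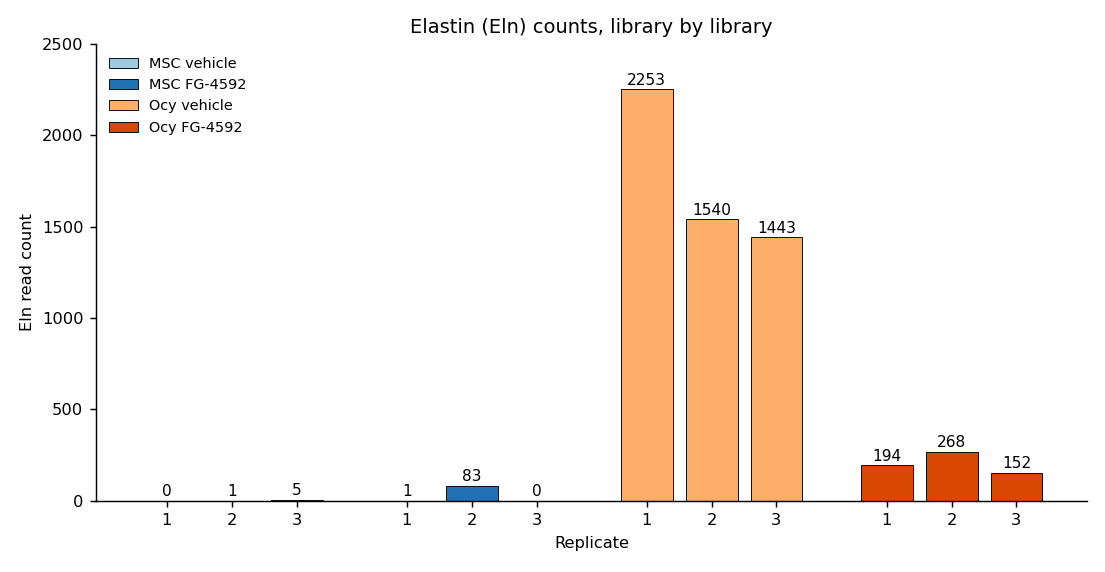
Eln read counts in each of the 12 libraries (vertical axis, linear from 0, the count printed above each bar), by condition and replicate. Vehicle-treated osteocytes had 1443 to 2253 counts and FG-4592-treated osteocytes 152 to 268, whereas among MSCs replicate 2 with FG-4592 had 83 and the others at most 5.

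Fbn1 (chromosome 2, 125300594 to 125507993, minus strand) encodes the main structural unit of microfibrils and was abundant in all conditions. It had 977.5, 1017 and 1127 CPM in vehicle-treated MSCs and 1293, 1161 and 1322 CPM with FG-4592, without overlap (log2 0.27, SE 0.0699, FDR = 0.00509). In osteocytes it had 989.2, 930.0 and 935.1 CPM with vehicle and 920.1, 1071 and 901.1 CPM with FG-4592, which overlapped (0.02, 95% interval −0.14 to 0.18, FDR = 0.855). The difference between the responses was −0.26 (FDR = 0.0732). Fbn1 shares 20.1% of its exonic bases with Gm9913, which had 49 to 171 counts per library.

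Fbln2 (chromosome 6, 91212455 to 91272540, plus strand), a fibulin that binds fibrillin and basement membrane proteins, had the largest response to FG-4592 in osteocytes among the 10 genes after Eln. Vehicle-treated MSCs had 365.6, 355.4 and 376.9 CPM and FG-4592-treated MSCs 698.9, 735.5 and 749.0 CPM. Vehicle-treated osteocytes had 127.6, 132.8 and 128.8 CPM and FG-4592-treated osteocytes 541.7, 642.8 and 587.8 CPM. The treated libraries were above the vehicle libraries without overlap in both cell types, and the lowest level was that of vehicle-treated osteocytes. Fbln2 was 1.99-fold higher with FG-4592 in MSCs (log2 0.99, SE 0.0566, FDR = 8.11e-10), just short of a call, and 4.55-fold higher in osteocytes (2.19, SE 0.0588, FDR = 4.75e-14). In MSCs the value was between 0.97 and 1.05 when each library was left out in turn, so that the call depended on which libraries were used. The response was larger in osteocytes by 1.19 (95% interval 1.01 to 1.38, FDR = 3.5e-08). Osteocytes were 2.82-fold below MSCs in vehicle (−1.50, FDR = 3.58e-12) and 1.23-fold below with FG-4592 (−0.30, FDR = 0.000245).

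Fbln5 (chromosome 12, 101746565 to 101819055, minus strand), which joins elastin to microfibrils and to cells, was high in osteocyte cultures and had no response to FG-4592 past the threshold. It had 84.3, 88.8 and 86.9 CPM in vehicle-treated MSCs, 78.1, 84.4 and 78.7 CPM in FG-4592-treated MSCs, 967.1, 987.6 and 1005 CPM in vehicle-treated osteocytes and 921.8, 982.1 and 1036 CPM in FG-4592-treated osteocytes. Osteocytes were 11.4-fold above MSCs in vehicle (log2 3.51, SE 0.055, FDR = 1.08e-16) and 12.2-fold above with FG-4592 (3.61, SE 0.0553, FDR = 5.1e-17). The FG-4592 response was −0.11 in MSCs (95% interval −0.22 to 0.01, FDR = 0.108) and −0.01 in osteocytes (95% interval −0.12 to 0.10, FDR = 0.898). With scaling to library size alone the MSC value was −0.19 (FDR = 0.00621).

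The 3 genes whose log2 CPM followed Fbln5 most closely over the 12 libraries were Pck1, Retn and Adig (Pearson r = 0.999, 0.999 and 0.998), of which Retn (resistin) and Adig (adipogenin) are known adipocyte genes and Pck1 is used by adipocytes to make glycerol. These points share libraries and fall into the 2 cell types, so r mostly restates the difference between them. The adipocyte marker sums given above, 1903 CPM or more in each osteocyte library and at most 250.7 CPM in each MSC library, part the libraries as Fbln5 does. Whether Fbln5 came from osteocyte-like or adipocyte-like cells was not tested.

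Efemp2 (chromosome 19, 5473954 to 5482517, plus strand), which brings Lox to elastin, was lower in osteocytes, at 144.3, 158.8 and 172.9 CPM with vehicle, than in MSCs, at 218.3, 214.3 and 219.7 CPM (log2 −0.45, SE 0.0598, FDR = 9e-06). With FG-4592 the libraries had 175.5, 185.3 and 168.1 CPM in osteocytes and 228.3, 241.5 and 241.1 CPM in MSCs (−0.43, FDR = 1.39e-05). The response to FG-4592 was 0.12 in MSCs (FDR = 0.117) and 0.15 in osteocytes (FDR = 0.0497), where the libraries overlapped. The second of these lost its FDR under 16 of 20 alternatives and was 0.05 with scaling to library size alone.

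**Figure D5:**
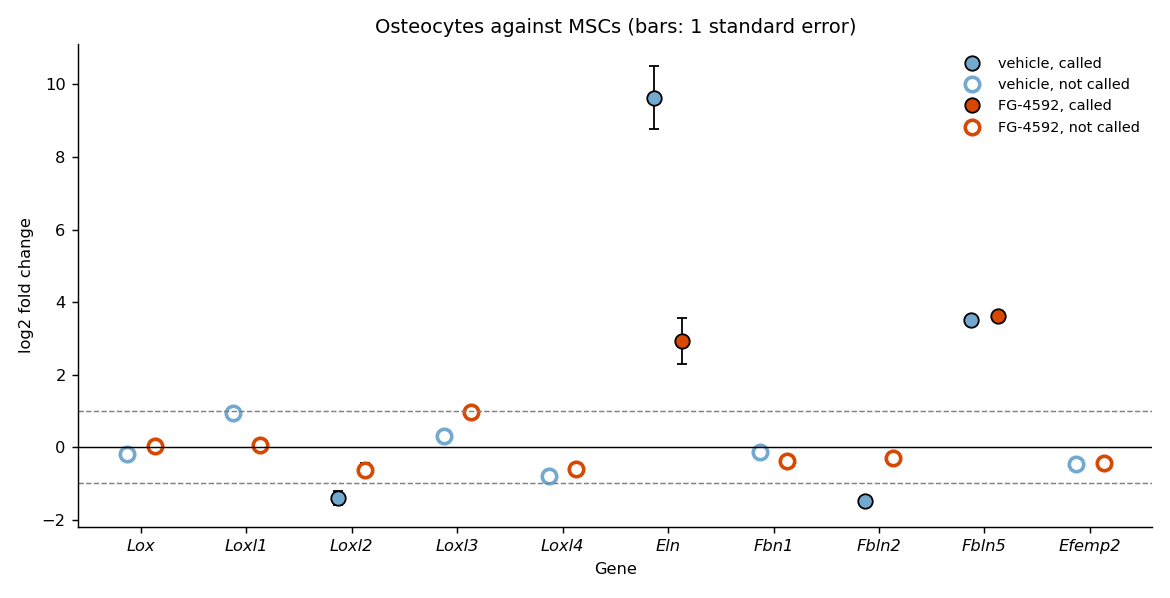
Log2 fold change of osteocytes against MSCs for each gene (vertical axis) in vehicle (light blue) and in FG-4592 (orange). Bars are 1 SE, filled points are called genes and dashed lines mark −1 and 1. Fbln5 lies at 3.51 and 3.61, Eln at 9.64 and 2.92, and the vehicle values of Loxl2 and Fbln2 lie below −1.

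Between the cell types, 2 of the 10 genes were called up and 2 down in vehicle, where 9.83% and 6.08% of all genes were, and 8 passed the FDR alone, against 51% of all genes. With FG-4592, 2 were called up and 0 down (5 at an unadjusted p under 0.05, and 0 by DESeq2), where 12.6% and 5.64% of all genes were, and 8 passed the FDR alone, against 55.8%. For the difference between the 2 drug responses, 1 was called up and 1 down, where 3.94% and 1.07% of all genes were, and 5 passed the FDR alone, against 24.3%. The gene called up was Fbln2 and the gene called down was Eln. The median log2 value of the 10 genes was −0.16 in vehicle, −0.13 in FG-4592 and 0.15 for the difference of responses, and that of all genes was −0.01, 0.03 and 0.05. Loxl2 and Fbln2, called lower in vehicle-treated osteocytes, lay at −0.62 and −0.30 in FG-4592. These comparisons share libraries with those of the drug.

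Per kb, the order of the 10 genes changed with condition below Lox, which was first in all 4. In vehicle-treated MSCs Lox (941.2 ± 19.1 CPM per kb) was followed by Fbn1 (85.8 ± 6.37), Fbln2 (57.5 ± 1.69) and Efemp2 (57.4 ± 0.734), and the last pair overlapped. With FG-4592, Fbln2 (114.3 ± 4.07) passed Fbn1 (103.8 ± 7.05) in MSCs. In vehicle-treated osteocytes Fbln5 (142.8 ± 2.78) was second, followed by Fbn1 (78.4 ± 2.71) and Loxl1 (77.3 ± 6.06), which overlapped. In FG-4592-treated osteocytes Fbln5 (141.8 ± 8.30) was followed by Fbln2 (92.7 ± 7.94) and Fbn1 (79.5 ± 7.68), which overlapped, and Loxl1 had dropped to seventh (24.2 ± 2.23). Eln was last in both MSC conditions, and Loxl2 was last in both osteocyte conditions, where it overlapped Eln with FG-4592 (0.405 ± 0.0583 against 0.407 ± 0.120).

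The promoters of Fbln2 and Fbln5 are shown because Fbln2 had the largest rise with FG-4592 among the members called in osteocytes, whereas Fbln5 had a wide difference between cell types and no called response. HIF binds a core that reads ACGTG or GCGTG, and these were searched on both strands in RefSeq promoters of GRCm38.p6 (300 bases, 250 before and 50 after the start). Of 32851 promoters of this length, 43.8% held at least 1 of these motifs. The members whose RefSeq promoters were searched were Fbn1, Fbln2, Fbln5, Efemp2 and Loxl4. Promoters of the other members, Lox among them, were not searched, so whether they hold these motifs is not known here. The windows run chr6:91212514-91212813 (plus strand) for Fbln2 and chr12:101819070-101819369 (minus strand) for 1 of the 2 starts of Fbln5, and capitals mark matches.
Fbln2: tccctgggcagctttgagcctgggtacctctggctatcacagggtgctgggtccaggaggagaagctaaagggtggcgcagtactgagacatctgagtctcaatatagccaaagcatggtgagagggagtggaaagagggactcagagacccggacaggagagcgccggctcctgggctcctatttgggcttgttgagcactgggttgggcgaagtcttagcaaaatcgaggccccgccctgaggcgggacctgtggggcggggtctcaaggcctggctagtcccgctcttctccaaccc
Fbln5: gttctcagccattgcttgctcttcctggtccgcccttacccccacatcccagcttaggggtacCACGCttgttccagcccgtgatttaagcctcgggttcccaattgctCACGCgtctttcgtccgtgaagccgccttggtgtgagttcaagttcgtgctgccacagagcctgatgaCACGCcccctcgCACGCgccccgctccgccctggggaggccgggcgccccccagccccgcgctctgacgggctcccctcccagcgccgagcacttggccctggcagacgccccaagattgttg

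The Fbln2 window, of a gene that was 4.55-fold higher with FG-4592 in osteocytes, held 0 matches. The Fbln5 window, of a gene at −0.11 and −0.01 with FG-4592, held 4, each of them GCGTG read on the opposite strand and printed as CACGC, with first bases at −187, −141, −73 and −61 from the start. The other Fbln5 start held 0. Among the 3 starts of Efemp2 there were 2, 0 and 1 matches, Loxl4 had 1 and Fbn1 had 0. A match is a description of the letters and not a binding site, and a window without a match leaves the rest of the gene unsearched.

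The other genes of elastic fibres and of lysyl oxidase biology were followed through 4 lists, read beside all genes tested. Of all genes, 4.12% were called up and 5.17% down with FG-4592 in MSCs (median log2 fold change −0.05), and 6.25% and 4.26% in osteocytes (median 0.0015). Between cell types 9.83% were called up and 6.08% down in vehicle (median −0.01), and 12.6% and 5.64% in FG-4592 (median 0.03). In the difference between the responses the shares were 3.94% and 1.07% (median 0.05). Of 19 other microfibril and elastic fibre genes, 15 were tested, and with FG-4592 0 were called up (5 at an unadjusted p under 0.05 in each cell type, and 0 by DESeq2) and 1, Fbln7, was called down in each, with list medians of −0.03 in MSCs and −0.24 in osteocytes. Fbln7, a fibulin of cell adhesion, fell from 14.8 to 4.67 CPM in MSCs (log2 −1.66, FDR = 1.04e-08) and from 105.0 to 50.1 CPM in osteocytes (−1.07, FDR = 2.32e-07). Between cell types in vehicle 5 were called up and 0 down (3 at an unadjusted p under 0.05, 0 by DESeq2; median 0.15), among them Mfap5, a microfibril-associated glycoprotein, at 2.92 (FDR = 1.97e-13). Mfap4 and Adamtsl2 were also called up, from 0 to 3 and 0 counts in vehicle-treated MSCs to 9 to 32 and 4 to 11 counts in vehicle-treated osteocytes, and no fold is given for them since no MSC library exceeded the 3 counts that a 0 allows. In FG-4592, 6 were called up and 1 down (median 0.46). Mfap4 and Adamtsl2 are among the 5 and the 6, and passed the filter on low counts through osteocyte libraries alone. The responses differed for Emilin1, an elastin-microfibril interface protein, by 1.29 (FDR = 1.4e-08), and for Ltbp1, which stores TGF-beta in the matrix, by −1.22 (FDR = 9.53e-08). Emilin1 had 221.5 CPM in osteocytes with vehicle and 421.5 CPM with FG-4592, and Ltbp1 533.9 and 271.1 CPM.

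The second list held 11 genes of lysyl oxidase maturation, copper supply and partners, and all 11 were tested. With FG-4592, 2 were called up and 2 down in each cell type, with medians of 0.21 in MSCs and 0.08 in osteocytes. Postn, a matricellular protein that brings Bmp1 to Lox, fell from 69.4 ± 14.8 to 6.01 ± 1.84 CPM in osteocytes (log2 −3.53, SE 0.242, FDR = 5.87e-09), and from 5.11 to 1.78 CPM in MSCs (−1.52, FDR = 0.000374). The difference between the responses of Postn was −2.01 (FDR = 0.000781), the only call of this list in that comparison. Tnc, another matricellular protein, fell in MSCs (−2.01) and osteocytes (−1.59, FDR = 1.02e-10). Pcolce2, which enhances procollagen cleavage by Bmp1, rose in MSCs (1.40) and osteocytes (1.80, FDR = 4.34e-13), and Fn1, on which Lox is processed, rose in osteocytes by 1.30 (FDR = 2.06e-11). Bmp1 itself, the protease that cuts the Lox proenzyme, was at 0.44 in osteocytes (FDR = 4.78e-06), under the cutoff of a call, and the copper pump Atp7a was at 0.35 in MSCs (FDR = 0.000177) and 0.13 in osteocytes (FDR = 0.092), also under that cutoff. Between cell types, Postn and Tnc were called up and Pcolce2 and Tll1 down, with vehicle and with FG-4592 (medians −0.09 and 0.04).

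Of 7 fibrillar collagens, 0 were called in MSCs with FG-4592 by edgeR or DESeq2, and 2 rose and 3 fell at an unadjusted p under 0.05 (median −0.07). In osteocytes Col2a1, the collagen of cartilage, rose from 62.7 to 293.9 CPM (log2 2.23, FDR = 7.05e-10) and Col11a1 fell from 359.9 to 170.3 CPM (−1.08, FDR = 3.08e-06), with a list median of −0.01. Col1a1 and Col1a2, the chains of bone collagen, were at 0.11 (FDR = 0.363) and −0.01 (FDR = 0.906). The summed cartilage markers, of which Col2a1 is one and Acan was at or near 0, went from 113.5 to 134.5 CPM up to 375.1 to 455.0 CPM. Col2a1, Col3a1 and Col11a1 were called up in osteocytes over MSCs with both treatments (medians 0.30 and 0.50), and the responses to the drug differed for Col2a1 by 1.48 (FDR = 0.00277), with a list median of 0.20.

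Of 10 elastin-degrading proteases and elastin receptor genes, 8 were tested. Mmp9, an elastolytic gelatinase, was called down with FG-4592 in MSCs and in osteocytes, where it fell from 6.85 ± 0.393 to 0.831 ± 0.0523 CPM (log2 −3.04, FDR = 3.89e-07). In MSCs it was at 0.184 CPM with vehicle, near the floor. Ctsa, the protective protein of the elastin receptor complex, rose 1.34 on the log2 scale in osteocytes (FDR = 1.93e-12). List medians were 0.16 in MSCs and −0.27 in osteocytes. Mmp9, Ctsk and Mmp2 were called up in vehicle-treated osteocytes over MSCs (median 0.51), and Mmp9 alone in FG-4592 (median 0.37). For the difference between the responses 0 of the 8 were called by the quasi-likelihood test or DESeq2, 1 was above and 5 below 0 at an unadjusted p under 0.05, and the median was −0.23.

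The genes nearest to each member over the 12 libraries, ranked by Pearson r of log2 CPM, were as follows for the members not yet covered. Lox was followed by Dipk2a, Cpox and Dubr (r = 0.987, 0.984 and 0.983). Loxl1 was followed by Tmem86a, Gbp3 and Snx19, Loxl2 by Ephb6, Prss46 and Nxn, Loxl3 by Runx1, Crim1 and Akap7, and Loxl4 by Rnf2, Cops7b and Pak1, with r between 0.977 and 0.989. Among the genes nearest to Eln were Slc26a7 and Stat5a (r = 0.951 and 0.950), and among those nearest to Fbn1 were Hira and Mbnl2 (r = 0.971 and 0.940). Fbln2 was followed by Hjurp, Ly6a and Phf13 (r = 0.994, 0.987 and 0.987), and Efemp2 by Ddah2, Avpi1 and Ap1m1 (r = 0.991, 0.984 and 0.979). The 5 pairs of members with the largest absolute r were Loxl1 and Fbln2 (−0.987), Loxl4 and Fbln5 (−0.940), Fbln5 and Efemp2 (−0.922), Lox and Loxl1 (−0.916), and Loxl2 and Fbln2 (0.904). All these values describe 12 libraries that share 4 conditions. Most of the genes nearest to the members were others when ranked by Spearman's rho.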

How the data were processed

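Reads of 12 libraries, in pairs of 100 bases, were mapped to mm10 with STAR 2.7.2a and counted on Gencode M22 genes with featureCounts of Subread 1.6.2, per the labels and the methods of the study. The authors kept unique reads of mapping quality 10 or more, counted a pair for each gene it overlapped, and used no strand. The authors deposited raw counts per gene, which were used unchanged. Libraries were grouped by labelled cell type and treatment. Nothing says that libraries of a condition came from separate cultures, so p-values measure the spread between these libraries, which may be technical.

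Genes over 10 counts in 3 libraries were kept. Counts were fitted in edgeR 4.0.16 (R 4.3.3), with TMM factors of 0.947 to 1.057, 1 coefficient per condition in all 12 libraries (8 residual degrees of freedom) and the quasi-likelihood test. SE was the log2 fold change divided by the root of F, and intervals used 8 degrees of freedom. An exact permutation test of 3 against 3 cannot give a two-sided p under 0.1. The script was tested on simulated data. Alternatives were RLE factors, library size alone, no filter, filterByExpr, the likelihood ratio test, DESeq2 1.42.0, a fit of the compared libraries alone, a block for replicate number, Spearman's rho and each library left out. Overlaps came from the exons in the deposited table and matches from Gencode M21 transcripts (blastn).

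The members and lists were chosen with earlier results of these data known. Named were all members, up to 3 called genes per list and comparison with the largest fold, and the 3 genes nearest each member whose mean reached 100 counts in some condition. Col1a1, Col1a2, Bmp1 and Atp7a were named for their roles, Fn1 and Pcolce2 completed short counts after their values were seen, and other exceptions are stated where they occur. Of the nearest genes, 1 of Eln and 1 of Fbn1 are not reported here.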

Additional observations from a re-analysis of the deposited data

Results flagged for a closer look

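For 5 of the 10 genes, the response to FG-4592 differed between osteocytes and MSCs by the test of the difference itself (edgeR quasi-likelihood test, FDR over all genes tested), which 24.3% of all genes also passed. The log2 difference, osteocytes minus MSCs, was 1.195 for Fbln2 (FDR = 3.5e-08), whose response was larger in osteocytes. It was −0.8865 for Loxl1 (FDR = 8.27e-06), which fell further in osteocytes. For Loxl3 it was 0.6552 (FDR = 8.79e-05), with 0.61 in osteocytes and −0.05 in MSCs. For Loxl2 it was 0.7764 (FDR = 0.044), and this FDR was 0.05 or more without any of 10 of the 12 libraries. For Eln it was −6.723 (FDR = 0.00184), and −1.29 (FDR = 0.805) without MSC FG-4592 replicate 2, the library with 83 Eln counts. The treated MSC libraries left had 1 and 0 Eln counts, so −1.29 is not exact. With 3 libraries per condition, single libraries were not tested for standing apart within a condition.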

How the results depend on the processing

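Of 991 values of single genes under the alternatives, covering 50 results and including 2 values of Eln from DESeq2 without MSC FG-4592 replicate 2, an alternative chosen after seeing the data, 967 stayed on their side of the call, 6 lost it, 18 gained it and 0 changed direction while called. The number of members called up with FG-4592 in MSCs, 1, was 0 with library size alone, 2 with the likelihood ratio test, 2 with only the libraries compared, and 1 to 3 when each library was left out in turn. Lox (1.01) and Fbln2 (0.99) lie at the cutoff of the fold, and Eln (FDR 0.0553) gained its call with the likelihood ratio test, without a filter, and without MSC FG-4592 replicate 1 or 3 or osteocyte vehicle replicate 1. With DESeq2 the members called down in osteocytes numbered 1 and those called up between cell types in FG-4592 numbered 1, as Eln lost its call. The members called down in the difference between responses ranged from 0 to 1 with libraries left out, with 0 without MSC FG-4592 replicate 2. The Lox call in MSCs was also lost without a filter (1.00). Loxl1, at 0.95 between cell types in vehicle, passed 1 without MSC vehicle replicate 2 or 3 or osteocyte vehicle replicate 1 (up to 1.05), and Loxl3, at 0.96 in FG-4592, reached 1.05 without osteocyte FG-4592 replicate 3. By Spearman's rho, 3 of the 30 nearest genes were shared with those by Pearson's r. The order of the condition means was kept for 8 of 10 members with library size alone, and changed for Lox and Fbn1. Libraries of the same replicate number did not deviate together (r of deviations between −0.135 and 0.0543 over 18 pairs). This does not settle whether they were grown or prepared together. With the replicate block the FDR of the Loxl2 difference was 0.0583 (log2 0.77) and that of Efemp2 in osteocytes 0.0503. Counts were low for Eln in MSCs, where 1 library with FG-4592 stood apart, and for Loxl2.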
